A study of Homo sapiens with 6 samples.

Results

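The BCL2 family decides whether a cell under stress releases the contents of its mitochondria and dies by apoptosis. The 10 family genes described here were taken by name for their roles in this family and not by a rule on measured values, although earlier results of these data were known when they were picked. All 10 were found among the 18417 genes measured in 6 arrays. They comprise 3 genes for pro-survival proteins (BCL2, BCL2L1 and MCL1), 5 for BH3-only death signals (BCL2L11, BMF, BBC3, PMAIP1 and BIK) and 2 for pore formers (BAX and BAK1). Each gene had 1 probe set annotated with its symbol alone, so no choice between probe sets was needed. RNA came from H358, an established human non-small cell lung cancer line. One line stably expressed green fluorescent protein (GFP, 3 arrays) and the other stably expressed TwistER (3 arrays), a name used for the Twist transcription factor fused to the hormone-binding domain of the estrogen receptor. Both lines were grown with 100 nM 4-hydroxytamoxifen (4OHT) for 12 days, so that the drug is shared by the groups. The GFP samples are titled as before, and the TwistER samples as after, epithelial-mesenchymal transition (EMT). The labels do not say whether either line was a single clone, and TwistER cells without the drug were not among the samples, so activation of TwistER and other differences between the lines cannot be told apart.

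In this family the pro-survival proteins hold the pore formers BAX and BAK1 in check on the outer mitochondrial membrane. BH3-only proteins are made or released when a cell is starved of growth factors, loses its attachment to matrix or suffers damage, and they bind the pro-survival proteins or activate the pore formers directly. In cells driven by receptor kinases, BIM, the product of BCL2L11, is kept low by ERK signalling and is a known contributor to death under kinase inhibitors. Several of these proteins, MCL1 and BIM among them, are also controlled by phosphorylation and degradation, which arrays of RNA do not measure.

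GFP replicate 1 stood apart from the other arrays of its line. It correlated with them over genes at r = 0.982 at most, against 0.996 between GFP replicates 2 and 3, and 17.7% of all genes read at least 0.5 (log2) away from the mean of those 2 arrays. Where leaving it out turned a named gene's direction, changed its call or moved its difference by over 1.5 times, the value without it is also given. The epithelial identity of the line was checked with 8 epithelial markers, whose mean log2 level over the list was 8.43 to 8.94 in the GFP arrays and 6.72 to 6.79 in the TwistER arrays, with 6 lower and 0 higher at the threshold used below. Mean levels over 5 leukocyte markers were 3.74 to 3.78 in GFP and 3.90 to 4.06 in TwistER, with 0 of 5 past the threshold in limma and 0 of 5 at an unadjusted p under 0.05. Over 5 endothelial markers they were 3.94 to 4.02 and 4.42 to 4.52 (2 higher), and over 9 fibroblast markers 4.63 to 4.77 and 4.82 to 4.92 (3 higher and 1 lower). RMA values do not reach 0, so absence of a marker was not read from them, and the part of cell composition in the results below was not tested.

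BCL2L11 was the member that passed the threshold in limma. The promoter windows of BCL2L11 and of PMAIP1, the other member whose arrays did not overlap between groups, are shown to place these genes. Each window holds the 250 bases before the start of the RefSeq transcript (GRCh38.p14, plus strand), and capitals mark motif matches. BCL2L11 lies on chromosome 2 (window chr2:111120664-111120913) and PMAIP1 on chromosome 18 (window chr18:59899746-59899995).
BCL2L11: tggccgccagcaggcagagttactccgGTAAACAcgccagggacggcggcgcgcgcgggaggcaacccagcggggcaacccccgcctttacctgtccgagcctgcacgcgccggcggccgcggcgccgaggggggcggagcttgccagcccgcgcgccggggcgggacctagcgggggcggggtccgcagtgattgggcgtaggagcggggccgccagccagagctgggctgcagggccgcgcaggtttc
PMAIP1: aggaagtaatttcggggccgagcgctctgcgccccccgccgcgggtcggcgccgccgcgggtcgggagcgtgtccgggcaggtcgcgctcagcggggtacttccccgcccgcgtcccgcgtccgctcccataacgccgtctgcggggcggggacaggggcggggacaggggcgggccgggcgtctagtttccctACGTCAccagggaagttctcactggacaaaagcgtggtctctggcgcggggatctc
In BCL2L11 the capitals mark the forkhead motif TGTTTAC, which lies on the minus strand and so is written as its reverse complement, 223 to 217 bases before the start. FOXO factors of the forkhead class are known activators of BCL2L11. In PMAIP1 they mark TGACGT, the core of the cyclic AMP response element, also on the minus strand, 56 to 51 bases before the start. Both strands were searched for these 2 motifs and for the E-box CANNTG, the kind of motif that Twist proteins bind. Windows of this length held TGTTTAC in 2.98% of the 35116 RefSeq promoters, TGACGT in 7.10% and CANNTG in 61.8%. CANNTG was not among the letters of either window shown. Of the 8 members with a window in the RefSeq table, 3 held it, namely BMF, BBC3 and BAX, and the BAX window held it 5 times. The members MCL1 and BIK were not matched. A match or its absence is a description of these letters and says nothing of binding.

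**Figure D1:**
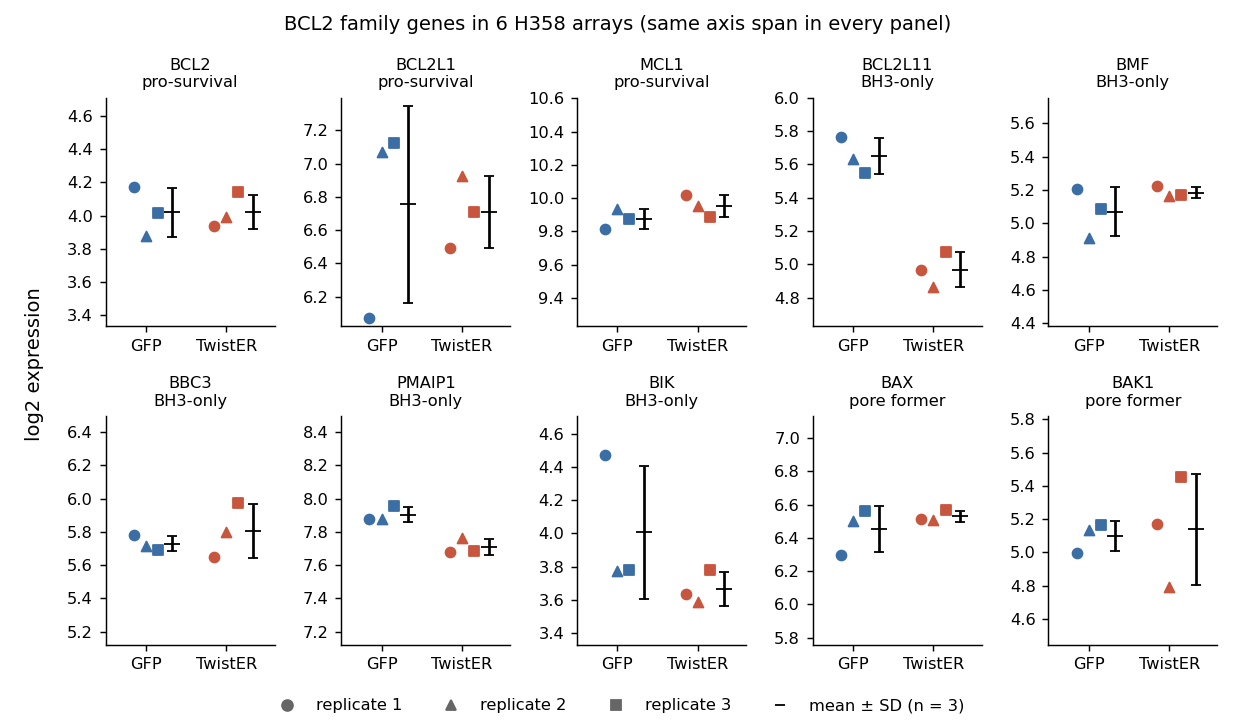
Log2 expression (vertical axes, the same span in every panel) of the 10 members in the 3 GFP arrays (blue) and the 3 TwistER arrays (red), with the mean and SD of each group in black. BCL2L11 reads between 5.55 and 5.77 in GFP and between 4.86 and 5.07 in TwistER, and GFP replicate 1 sits apart from its group in BCL2L1 and BIK.

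Among the death signals, BCL2L11 fell in the TwistER line. It read 5.77, 5.63 and 5.55 on the log2 scale in GFP replicates 1 to 3, and 4.97, 4.86 and 5.07 in TwistER replicates 1 to 3. Every TwistER array lay below every GFP array, and the arrays of a group lay closer together than the groups did. The means were 5.65 ± 0.11 in GFP and 4.97 ± 0.11 in TwistER (SD, n = 3), a log2 difference of -0.68 ± 0.11 (SE, 95% interval -0.94 to -0.42), or 1.61-fold less transcript in TwistER. In limma's test over all genes the Benjamini-Hochberg adjusted p was 0.00730, where 0.05 was the threshold. In samples of whole cultures, fewer cells that carry a transcript and less of it per cell cannot be told apart. Leaving out GFP replicate 1 gave -0.62 (limma adjusted p = 0.00689), and with any 1 array left out it stayed between -0.74 and -0.62, with a highest adjusted p of 0.0468 in limma, without TwistER replicate 2. BCL2L11 encodes several BIM isoforms of different potency, which this 1 value does not separate.

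Thus 1 of the 10 members fell and 0 rose, beside 8.83% of all 18417 genes past the same threshold (4.11% lower and 4.72% higher in TwistER). The members' count is close to that background. At an unadjusted p under 0.05 in limma it was also 1 member, beside 21.6% of all genes. The groups did not overlap in 2 members, BCL2L11 and PMAIP1, where this held for 28.4% of all genes. The median difference of the 10 members was 0.023, beside 0.0063 for all genes.

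PMAIP1 encodes NOXA, a BH3-only protein that binds chiefly MCL1. It read 7.88, 7.88 and 7.95 in GFP and 7.68, 7.76 and 7.69 in TwistER. All TwistER arrays were below all GFP arrays, by a small margin. The group means were 7.90 ± 0.044 and 7.71 ± 0.046 (SD, n = 3) and the difference of -0.19 ± 0.10 (SE) did not pass in limma (adjusted p = 0.321). Its 95% interval ran from -0.42 to 0.035, which as a ratio of TwistER to GFP is 0.746 to 1.02.

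BIK encodes a BH3-only protein of the endoplasmic reticulum. Its values were 4.47, 3.78 and 3.78 in GFP and 3.63, 3.59 and 3.78 in TwistER. GFP replicate 1 was the high array, 0.69 above the mean of the other GFP arrays, which were 0.0023 apart and within the range of the TwistER arrays or at its upper edge. The difference of -0.34 ± 0.19 (SE) did not pass (limma adjusted p = 0.364). Leaving out GFP replicate 1 gave -0.11 (adjusted p = 0.535). BIK's size of difference therefore rested on that array. It was also a dim probe set, at percentile 19.3 of brightness among all genes, where background light compresses differences.

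The remaining BH3-only genes overlapped between the lines. BMF, whose product is tied to the cytoskeleton and is known for signalling loss of matrix attachment, read 5.21, 4.91 and 5.09 in GFP and 5.22, 5.16 and 5.17 in TwistER. The BMF difference was 0.11 ± 0.11 (SE, 95% interval -0.15 to 0.38, limma adjusted p = 0.649), and it was 0.18 without GFP replicate 1 and 0.037 without GFP replicate 2. BBC3, which encodes PUMA, a strong binder of all the pro-survival proteins, read 5.78, 5.72 and 5.69 in GFP and 5.65, 5.80 and 5.97 in TwistER. Both the lowest and the highest BBC3 value came from TwistER arrays. Its difference was 0.077 ± 0.12 (SE, 95% interval -0.19 to 0.35, limma adjusted p = 0.786).

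**Figure D2:**
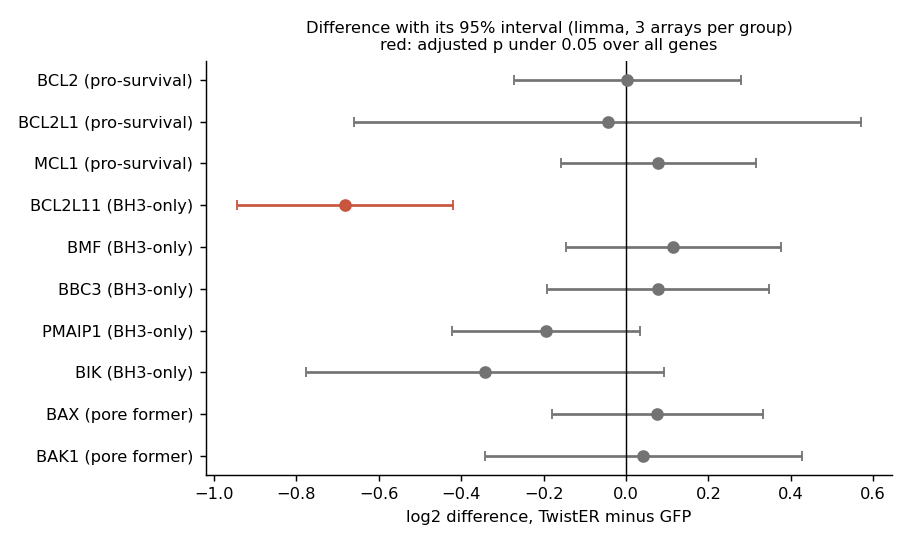
Log2 difference (TwistER minus GFP, horizontal axis) of each member with its 95% interval from limma, 3 arrays per group. BCL2L11, in red, is the member past an adjusted p of 0.05, and the interval of each of the other 9 members includes 0.

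No pro-survival member passed the test. MCL1, whose short-lived protein many cancer lines need, was among the bright probe sets of the arrays (percentile 96.1 of brightness). It read 9.81, 9.93 and 9.88 in GFP and 10.02, 9.95 and 9.89 in TwistER, with overlapping groups. Its difference was 0.078 ± 0.10 (SE), with an adjusted p of 0.745 in limma, and 0.049 without GFP replicate 1. The 95% interval, as a ratio of TwistER to GFP, was 0.897 to 1.24.

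BCL2, the founding member of the family, read 4.17, 3.87 and 4.01 in GFP and 3.94, 3.99 and 4.14 in TwistER. The arrays of the lines interleaved at a dim level (percentile 22 of brightness), and the difference was 0.0031 ± 0.12 (SE, limma adjusted p = 0.992), or 0.079 without GFP replicate 1. The interval of the BCL2 ratio was 0.828 to 1.21.

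BCL2L1, the gene of BCL-XL and, by splicing, of the death-promoting BCL-XS, was the member with the widest interval. It read 6.07, 7.07 and 7.12 in GFP and 6.49, 6.92 and 6.71 in TwistER. GFP replicate 1 was the lowest of all 6 arrays and the other GFP arrays were the highest. The difference was -0.045 ± 0.27 (SE, limma adjusted p = 0.953), and its interval of ratios, 0.633 to 1.49, leaves room for a change in either direction. Without GFP replicate 1 the difference was -0.39 and the 3 TwistER arrays lay below both remaining GFP arrays, but the test was not passed there either (limma adjusted p = 0.108). Without GFP replicate 2 or 3 it was 0.11 and 0.14, and without TwistER replicate 1 it was 0.063. The direction for BCL2L1 thus depended on which arrays were kept. The value does not separate the BCL-XL and BCL-XS transcripts.

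The pore formers overlapped between the lines and neither passed the test. BAX, which moves from the cytosol to mitochondria when activated, read 6.30, 6.50 and 6.56 in GFP and 6.52, 6.51 and 6.57 in TwistER. The low value was GFP replicate 1, 0.23 below the other GFP arrays. The BAX difference was 0.076 ± 0.11 (SE, limma adjusted p = 0.779), with ratios of 0.883 to 1.26 in its interval, and it was -0.0017 without that array. BAK1, which encodes the membrane-resident BAK, read 4.99, 5.14 and 5.16 in GFP and 5.17, 4.79 and 5.45 in TwistER. The TwistER arrays spread on both sides of the GFP arrays. The difference was 0.042 ± 0.17 (SE, limma adjusted p = 0.926, ratios 0.789 to 1.34), or -0.0097 without GFP replicate 1. A p that misses the threshold does not show equal levels, and for the 9 members that missed it these intervals give what the 6 arrays allow.

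**Figure D3:**
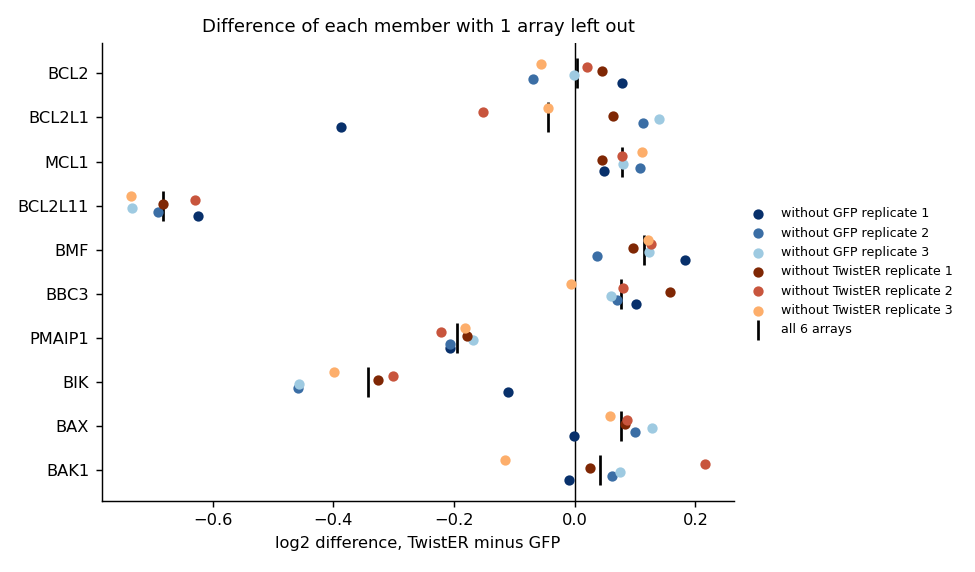
Log2 difference (TwistER minus GFP) of each member with all 6 arrays (black bar) and with 1 array left out (points). BCL2L11 stays between -0.74 and -0.62, whereas BCL2L1 runs from -0.39 to 0.14 and BIK from -0.46 to -0.11, each with its outlying point where GFP replicate 1 is left out.

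Genes whose pattern over the 6 arrays was most like that of the 2 members with the largest differences were named by Pearson's r, among 16466 other protein-coding genes. For BCL2L11 they were ERMP1, a peptidase of the endoplasmic reticulum (r = 0.999), the co-chaperone gene DNAJA4 (r = 0.998) and SQOR, a mitochondrial sulfide oxidoreductase (r = 0.996). These 3 genes fell as well, by 1.10, 0.66 and 1.07 on the log2 scale. Their fall follows from how they were picked, since BCL2L11 itself split the groups, and is not a separate result. A likeness over 0.95 to BCL2L11 was reached by 372 of the 16466 genes, so it is not particular to these 3. For BIK they were HMGN3, a nucleosome-binding protein (r = 0.997), the DNA repair enzyme TDP2 (r = 0.995) and PNO1 of ribosome assembly (r = 0.994). None of those 3 passed the test between the lines (lowest limma adjusted p = 0.362). In BIK and in each of these 3 genes GFP replicate 1 was the highest array, so this likeness leans on that array, and 180 genes exceeded 0.95. Without it the differences of HMGN3, TDP2 and PNO1 were -0.11, -0.093 and -0.11, and their r with BIK over the 5 remaining arrays was 0.964, 0.922 and 0.904.

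The rest of the apoptosis pathway was read from 7 lists, of which 81 genes were measured and 10 passed the test (12.3%, beside 8.83% of all genes). The largest changes were in the TRAIL system, in opposite directions for the ligand and 1 of its receptors. TNFSF10, which encodes the death ligand TRAIL, read 5.08, 4.41 and 4.87 in GFP and 6.68, 6.98 and 6.85 in TwistER. It rose 4.14-fold (2.05 ± 0.18 SE, limma adjusted p = 0.000231). TNFRSF10A, which encodes the TRAIL receptor DR4, read 6.05, 6.69 and 6.77 in GFP and 5.29, 4.96 and 5.20 in TwistER. It fell 2.55-fold (-1.35 ± 0.20 SE, limma adjusted p = 0.00333). The other death receptor of TRAIL on the list, TNFRSF10B, had a difference of 0.17 ± 0.18 (SE) that did not pass (limma adjusted p = 0.665). It read 7.11 in GFP replicate 1 against 7.81 and 7.58 in the other GFP arrays, and without that array its difference was -0.025. The death receptor list thus had 1 rise and 1 fall among 12 measured genes, and a median difference of 0.091. Without GFP replicate 1, CFLAR, an inhibitor of caspase-8 activation, also passed (0.93, limma adjusted p = 0.00628, against 0.66 and 0.135 with all arrays). That fit called 2773 of all 18417 genes, against 1627 with all arrays. This larger share is the background for every list gene gained without GFP replicate 1.

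Downstream of the mitochondria, APAF1 and CASP6 moved in opposite directions. APAF1, the scaffold on which cytochrome c activates caspase-9, was 6.61 ± 0.15 in GFP and 7.31 ± 0.14 in TwistER (SD, n = 3). It rose 1.63-fold (0.70 ± 0.13 SE, limma adjusted p = 0.0102), and lost the call without TwistER replicate 2 (adjusted p = 0.0570). CASP6, an effector caspase, was 7.87 ± 0.14 and 6.91 ± 0.19 (SD, n = 3) and fell 1.94-fold (-0.96 ± 0.14 SE, limma adjusted p = 0.00304). AIFM1, a mitochondrial flavoprotein that supports respiration and can carry a death signal to the nucleus, was 8.95 ± 0.050 and 8.25 ± 0.078 (SD, n = 3). It fell 1.63-fold (-0.70 ± 0.10 SE, limma adjusted p = 0.00379). CYCS, cytochrome c itself, had a difference of -0.49 ± 0.18 (SE) that did not pass (limma adjusted p = 0.161). GFP replicate 1 was its highest array (the other GFP arrays read 10.38 and 10.34), and without it the difference was -0.27 (adjusted p = 0.135). The 11 genes measured here held 1 rise and 2 falls, at a median difference of -0.10.

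Of the 12 other BCL2 family genes measured, limma called 0 in either direction, and their median difference was 0.046. An unadjusted p under 0.05 in limma was found in 1 of them, beside 21.6% of all genes. That gene was BCL2L14 (-0.46 ± 0.16 SE, adjusted p = 0.127). Likewise 0 of the 8 inhibitors of apoptosis rose or fell in limma, and 1, XAF1, had an unadjusted p under 0.05 (0.36 ± 0.10 SE, adjusted p = 0.0701), with a median of -0.013. At that unadjusted threshold there were 5 of 11 genes in the apoptosome and caspase list and 5 of 11 p53 target genes. There were 6 of 15 binding partners and turnover factors, and 3 of 12 in each of the death receptor and transcription factor lists. Without GFP replicate 1, XAF1, an antagonist of XIAP, and NAIP both rose (0.38 and 0.50, limma adjusted p = 0.0374 and 0.0363).

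Among 12 transcription factors listed as possible regulators of BH3-only genes, 2 passed, both upward, and the median difference was 0.091. JUN, a component of AP-1 and a known activator of BCL2L11 in neurons, rose 1.54-fold (0.62 ± 0.099 SE, limma adjusted p = 0.00578). CREB3L1, a membrane-anchored factor known for collagen synthesis, rose 1.66-fold (0.73 ± 0.16 SE, limma adjusted p = 0.0220). The CREB3L1 call was lost without GFP replicate 3 or any 1 TwistER array, with a highest adjusted p of 0.104. FOXO1, of the class whose motif lies in the BCL2L11 window, had a difference of 0.43 ± 0.11 (SE) that did not pass (limma adjusted p = 0.0531) and passed without GFP replicate 1 (0.36, adjusted p = 0.0442). FOXO3 had a difference of -0.089 ± 0.29 (SE) with an adjusted p of 0.906 in limma, and -0.15 without GFP replicate 1.

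The 11 genes of the DNA damage and stress response were listed as p53 target genes. They held 1 rise and 1 fall, at a median difference of -0.018. TP53INP1, a stress-induced regulator of autophagy and death, rose 2.25-fold (1.17 ± 0.17 SE, limma adjusted p = 0.00325). MDM2, a ubiquitin ligase, fell 1.47-fold (-0.56 ± 0.12 SE, limma adjusted p = 0.0282), a call that was lost without GFP replicate 2 or 3 or TwistER replicate 2 or 3 (highest adjusted p = 0.121). Without GFP replicate 1, GADD45A, a stress-induced growth arrest gene, also rose (0.42, limma adjusted p = 0.0363, against 0.39 and 0.0674 with all arrays). Of 15 binding partners and turnover factors of the family, 1 passed, downward, and the median difference was -0.12. It was BAG1, a BCL2-binding co-chaperone, which was 7.42 ± 0.29 in GFP and 6.61 ± 0.063 in TwistER (SD, n = 3). BAG1 fell 1.75-fold (-0.81 ± 0.15 SE, limma adjusted p = 0.0128) and did not pass without TwistER replicate 2 or 3 (highest adjusted p = 0.0636). GFP replicate 1 was its highest array. Without GFP replicate 1, 3 genes of this list fell, beside 1490 of all 18417 genes in that fit. They were BAG1 (-0.64), VDAC3, a channel of the outer mitochondrial membrane (-0.43), and DYNLL2, the dynein light chain that binds BMF (-0.40). With all arrays VDAC3 and DYNLL2 were at -0.37 and -0.32 and did not pass (limma adjusted p = 0.0813 and 0.146).

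**Figure D4:**
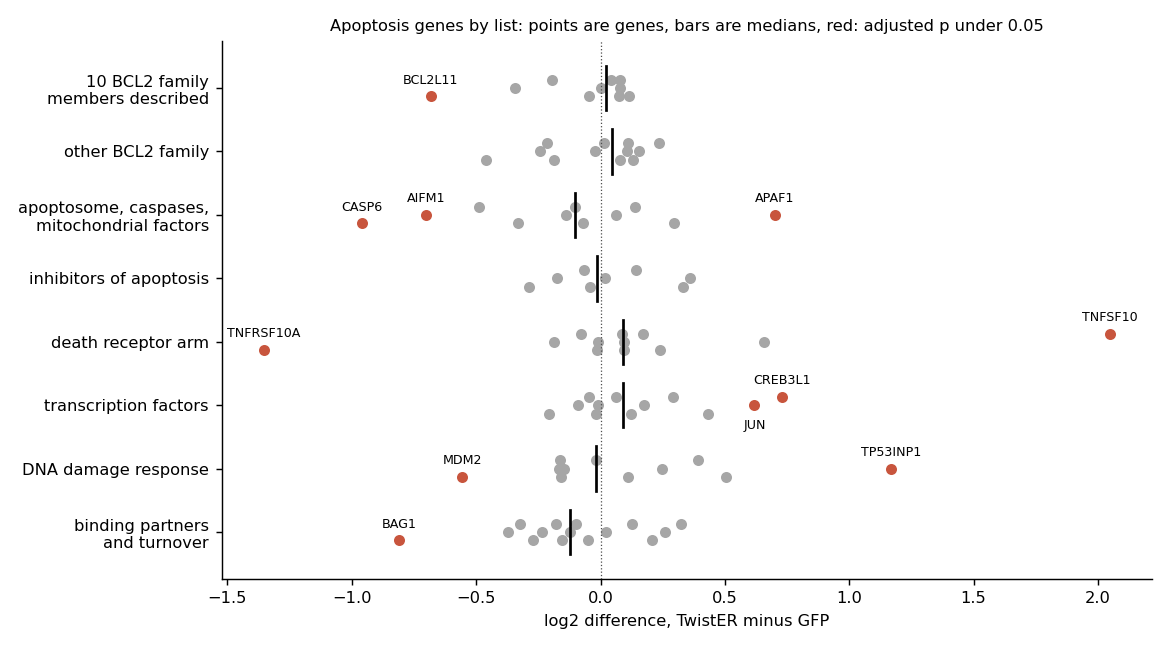
Log2 difference (TwistER minus GFP, horizontal axis) of the 10 members and of the measured genes of 7 apoptosis lists. Points are genes, vertical bars are list medians (all between -0.12 and 0.091), and the named red points are the genes past an adjusted p of 0.05 in limma, from TNFRSF10A at -1.35 to TNFSF10 at 2.05.

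**Figure D5:**
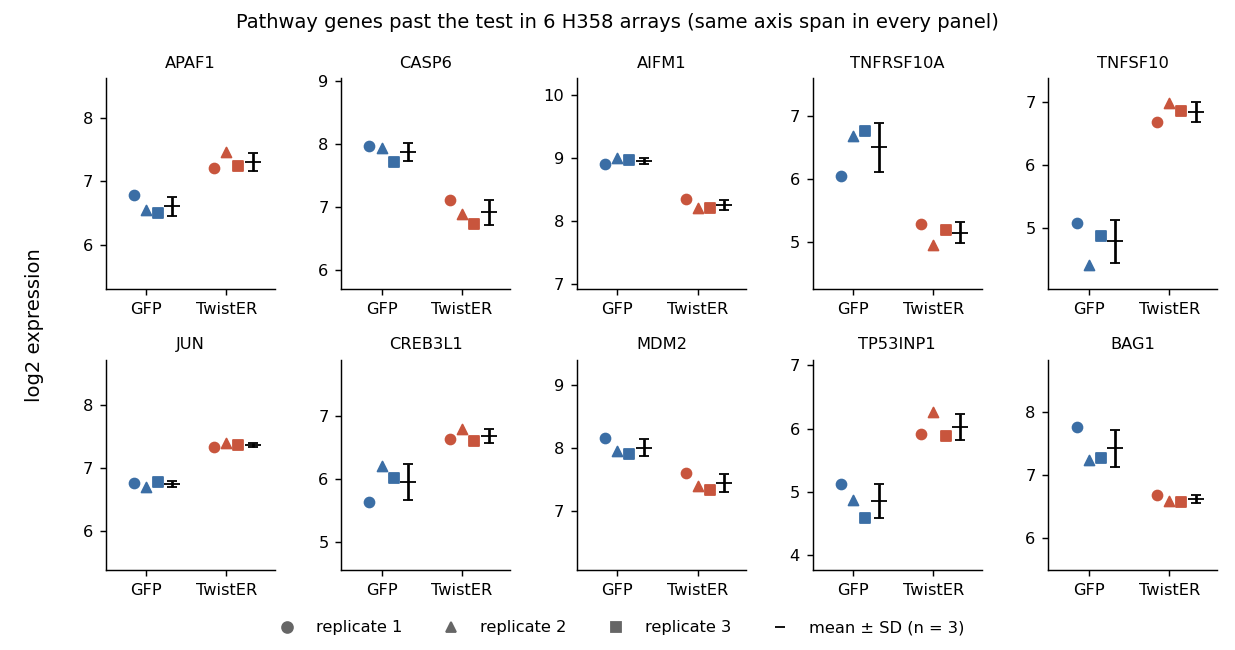
Log2 expression (vertical axes, the same span in every panel) of the 10 listed pathway genes past the test, in the 3 GFP arrays (blue) and 3 TwistER arrays (red), with the mean and SD of each group in black. In each of these 10 genes all TwistER arrays lie on one side of all GFP arrays. They were chosen by the test on these same arrays, which favours such a split, and 28.4% of all genes show it too. TNFSF10 shows the widest gap, from 5.08 to 6.68.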

How the data were processed

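Biotin-labelled RNA of 6 H358 cultures was measured on Affymetrix arrays, per the labels' protocols. The authors deposited log2 expression values per probe set made with RMA, per the submitters' processing notes, with the version and settings not given in the sources used here. The method equalises the arrays' intensity distributions and compresses differences of dim genes. Array number limits precision. Of 33297 probe sets, 19460 had 1 gene symbol in the platform annotation supplied (1754 several, 12083 unnamed), and the brightest per gene gave 18417 genes. Titles call the samples biological replicates without saying how they were separated, and the p-values reflect only the spread among them, which may be technical.

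Differences (TwistER minus GFP) were fitted over all genes with limma 3.58.1 in R 4.3.3 (lmFit, eBayes, 2-sided, adjusted p under 0.05 by Benjamini-Hochberg). Rose and fell are used for genes past it. Simulated data of 18417 genes had 200 shifted genes and independent noise in each array. There limma recovered 99% of shifts of 2 and 74% of shifts of 1 (log2). Smaller shifts, such as those of the members, were not simulated. Members and lists were chosen with earlier results of these data known. Named were the 10 members, list genes past the test, the genes most like the members with the 2 largest differences, and, chosen after their values were seen, TNFRSF10B, CYCS, FOXO1, FOXO3, BCL2L14, XAF1 and genes that passed without GFP replicate 1. Of 90 list entries, 9 were not analysed here. Promoter windows came from RefSeq. Alternatives were other normalizations, filters, probe set rules, variance models, thresholds, the replicate block and left-out arrays, with the lists' counts without each array added after seeing the data. Figures used matplotlib 3.10.9.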

Additional observations from a re-analysis of the deposited data

How the results depend on the processing

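The fall of BCL2L11 kept its direction and passed in all 15 fits that tested it (adjusted p 0.00106 to 0.0468, difference -0.74 to -0.62). It was not tested above the 50th percentile of brightness, where 5 members remained and 0 of them passed. In every other alternative, 1 member passed. None of the other 9 passed in any fit. The near-zero differences of BCL2, BCL2L1, BBC3, BAX and BAK1 changed sign in some fits. For BCL2 the difference was -0.028 after a second quantile normalization, -0.027 with median centring and -0.025 with cyclic loess, and -0.069 to 0.079 with 1 array left out. BAK1 was -0.050 with array weights and -0.12 to 0.22 with 1 array left out. Over left-out arrays BCL2L1 ran from -0.39 to 0.14, BBC3 from -0.0055 to 0.16 and BAX from -0.0017 to 0.13. The cause of the sign changes was not tested. BMF (0.037 to 0.18) and MCL1 (0.046 to 0.11) kept their direction over left-out arrays. Over all genes, 1627 passed, against 3268 with array weights, 807 at an adjusted p under 0.01, and 831 (without TwistER replicate 2) to 2773 (without GFP replicate 1) with 1 array left out. With the replicate number as a block, 1592 genes and 1 member passed (BCL2L11, adjusted p = 0.0190). The numbers were not taken as pairs, because same-numbered arrays' deviations correlated at r = 0.139, 0.015 and 0.157. Every array except GFP replicate 2 correlated best with its own number, which is a hint from the data and not from the design. Each member had 1 probe set, so the alternative of using every probe set gave no other value. Dim probe sets (BCL2, BIK) bound what these arrays can show.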
